A study of Mus musculus with 20 samples.

Results

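Integrins were followed here through 10 genes, of 55471 genes counted in SIMS cells, a mouse salivary gland line. The genes were Itga2, Itga3, Itga5, Itga6 and Itgav for alpha subunits and Itgb1, Itgb3, Itgb4, Itgb5 and Itgb6 for beta subunits, taken by their symbols in GENCODE release M21. Total RNA was sequenced from cells kept in DMEM medium plus 10% fetal bovine serum (FBS), in 5 groups of 4 libraries: unedited wild type, a Btbd7 knockout (KO) that served as the negative control, and 3 Zcchc8 KO clones, called clones 1, 2 and 3. Both knockouts were made with CRISPR/Cas9, and each Zcchc8 KO clone is 1 edited line. ZCCHC8 is a scaffold of the nuclear exosome targeting complex, which hands short-lived nuclear RNA to the exosome, and the series asked how loss of Zcchc8 alters RNA from regulatory features of the genome. For each integrin, 1 count was read for the gene and another for its PROMPT region, where promoter upstream transcripts arise. The gene counts covered 20 libraries and the PROMPT counts 19, without wild-type replicate 1. The labels do not say that the libraries of a group came from separate cultures, so the p-values given here measure the spread between libraries, which may be technical.

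Integrins are receptors of the cell surface, each an alpha and a beta subunit, that bind extracellular matrix outside the cell and link it to the cytoskeleton inside. The beta1 subunit pairs with many alpha subunits, beta4 pairs with alpha6 alone, and alphav pairs with several beta subunits. In salivary gland and other epithelia, integrins that bind laminin hold cells to the basement membrane, and integrins that bind fibronectin take part in branching of the gland.

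Promoter upstream transcripts start close to a gene's own start and run away from it, so the bases before that start are shown for 5 integrins. The RefSeq-derived promoter table held windows for 7 of the 10 genes, and none was found for Itga6, Itgb3 and Itgb4. Itga2 (chr13:114932101-114932350, minus strand of the gene), Itgav (chr2:83724147-83724396, plus), Itgb1 (chr8:128685404-128685653, plus) and Itgb5 (chr16:33829415-33829664, plus) are shown because their PROMPT counts were called higher in Zcchc8 KO. Itgb6 (chr2:60722644-60722853, minus) is shown because its PROMPT counts were too few to test. The PROMPT counts of Itga3 were called higher as well, but its window and that of Itga5 were only searched and are not shown. Each run is written 5′ to 3′ on the strand of the gene, from RefSeq on GRCm38.p6, and ends before the first annotated base of the gene. Capitals mark CG dinucleotides.
Itga2 upstream stretch: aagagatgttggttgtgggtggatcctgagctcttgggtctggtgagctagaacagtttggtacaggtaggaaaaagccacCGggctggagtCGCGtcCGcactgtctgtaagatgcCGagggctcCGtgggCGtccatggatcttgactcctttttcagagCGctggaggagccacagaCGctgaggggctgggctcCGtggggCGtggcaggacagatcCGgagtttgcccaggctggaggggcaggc
Itgav upstream stretch: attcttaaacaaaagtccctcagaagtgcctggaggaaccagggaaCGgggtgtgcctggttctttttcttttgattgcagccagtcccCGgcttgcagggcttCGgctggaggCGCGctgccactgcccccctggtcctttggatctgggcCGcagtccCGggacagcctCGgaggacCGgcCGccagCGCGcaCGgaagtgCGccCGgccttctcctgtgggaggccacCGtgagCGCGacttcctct
Itgb1 upstream stretch: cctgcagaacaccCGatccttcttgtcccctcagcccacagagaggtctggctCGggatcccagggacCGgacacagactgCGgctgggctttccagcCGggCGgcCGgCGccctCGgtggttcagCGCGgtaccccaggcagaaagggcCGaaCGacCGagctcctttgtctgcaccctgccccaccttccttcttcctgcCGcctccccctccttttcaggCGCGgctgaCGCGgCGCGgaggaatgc
Itgb5 upstream stretch: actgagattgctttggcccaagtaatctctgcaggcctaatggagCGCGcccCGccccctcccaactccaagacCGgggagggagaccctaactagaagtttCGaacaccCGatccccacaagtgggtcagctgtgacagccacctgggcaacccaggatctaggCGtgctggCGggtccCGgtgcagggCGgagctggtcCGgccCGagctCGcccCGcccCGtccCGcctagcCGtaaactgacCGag
Itgb6 upstream stretch: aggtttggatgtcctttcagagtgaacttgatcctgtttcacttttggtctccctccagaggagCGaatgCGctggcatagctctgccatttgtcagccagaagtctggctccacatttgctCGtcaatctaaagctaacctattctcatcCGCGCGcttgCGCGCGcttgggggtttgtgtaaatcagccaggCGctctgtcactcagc
In the 250 bases before RefSeq's start, Itgb1 held 21 CG dinucleotides, Itgav and Itgb5 18 each, Itga2 12 and Itgb6 11. Itga3 held 22 and Itga5 11. The median over 32851 windows of the same length was 6, and 16.3% of windows held at least as many as Itgb1. The motif GGGCGG, searched on both strands, occurred 3 times each in the windows of Itga3 and Itgb5, 2 times in that of Itga5 and 1 time in that of Itgb1, and 32.7% of all windows held it. It did not occur in the windows of Itga2, Itgav and Itgb6. TATAAA, the usual form of the TATA box, was in none of the 7 windows and in 12.4% of all windows. The polyadenylation signal AATAAA was likewise in none of the 7 and in 18.1% of all. The splice donor motif GGTAAG was in none of the 7 and in 7.84% of all. How far a PROMPT region reaches is not given in the sources used here, so these windows need not cover it.

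Depth and labels were checked first. Gene counts ran from 6833258 to 17771804 per library and PROMPT counts from 1569548 to 3966608. Wild-type replicate 1 stood apart, with 14245 genes detected against up to 18791 in its group. Btbd7 RNA was at 99.2 ± 3.23 CPM (read counts scaled to a common library total; SD, n = 4) in Btbd7 KO and 202 ± 7.64 (SD, n = 4) in wild type. The wild-type level of Zcchc8 RNA was 65.1 ± 2.92 CPM (SD, n = 4), with 60.3 ± 4.28 (clone 1), 23.3 ± 1.35 (clone 2) and 54.6 ± 4.84 (clone 3; SD, n = 4 per group). Clone 1 did not differ from wild type in this RNA (edgeR adjusted p = 0.291), and an edit need not lower the RNA. Clone 3 was slightly lower (log2 fold change -0.26, edgeR adjusted p = 0.0135). Its libraries, at 50.4 to 60.6 CPM, lay below wild type (61.6 to 68.1) but overlapped Btbd7 KO (57.4 to 65.5). The level of Zcchc8 RNA thus clearly checks the label of clone 2 only. The 8 epithelial markers summed to 3141 to 5114 CPM in every library, whereas the 4 endothelial markers reached at most 1.15 CPM, the 4 blood markers at most 13.4 CPM and the 7 fibroblast markers at most 35.2 CPM, with 2 of them at 0 throughout. The 5 acinar markers summed to 168 to 192 CPM in wild type and less in every edited group, at 109 to 115 in Btbd7 KO, 136 to 164 in clone 1, 127 to 155 in clone 2 and 115 to 124 in clone 3, and their part in the results was not tested.

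Levels were compared between integrins per kilobase of annotated exon. In wild type, Itgb1 led with 174 ± 11.5 CPM per kb (SD, n = 4). Itga3, one partner of beta1 for laminin, followed at 71.3 ± 15.1, and Itgb4, the hemidesmosome subunit, stood at 60.2 ± 7.95 (SD, n = 4). Itgb5 was at 57.2 ± 6.06 and Itgav at 52.1 ± 3.82 (SD, n = 4). The libraries of Itga3, Itgb4, Itgb5 and Itgav overlapped from each to the next, so their order within wild type was not resolved. Itga6 was at 25.5 ± 1.53, Itgb6 at 12.2 ± 2.12, Itga5 at 7.46 ± 0.781 and Itga2 at 5.73 ± 0.209 CPM per kb (SD, n = 4), with no overlap between neighbours. Itgb3, the platelet and vascular partner of alphav, had 0 or 1 count in each of the 20 libraries and was not tested. Itga2 was ninth in wild type and clone 3, at 3.04 ± 0.248 in the latter, but seventh in clone 2 at 11.5 ± 1.25 (SD, n = 4). With the length of the longest transcript in place of all exons, Itgav moved up to rank 3 in wild type, at 79.3 ± 5.81 CPM per kb (SD, n = 4). Itga6 moved from 25.5 ± 1.53 to 53.5 ± 3.20, near Itgb5 at 61.9 ± 6.56 (SD, n = 4). The gap between Itga6 and the genes above it therefore depended on the length used. 

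**Figure D1:**
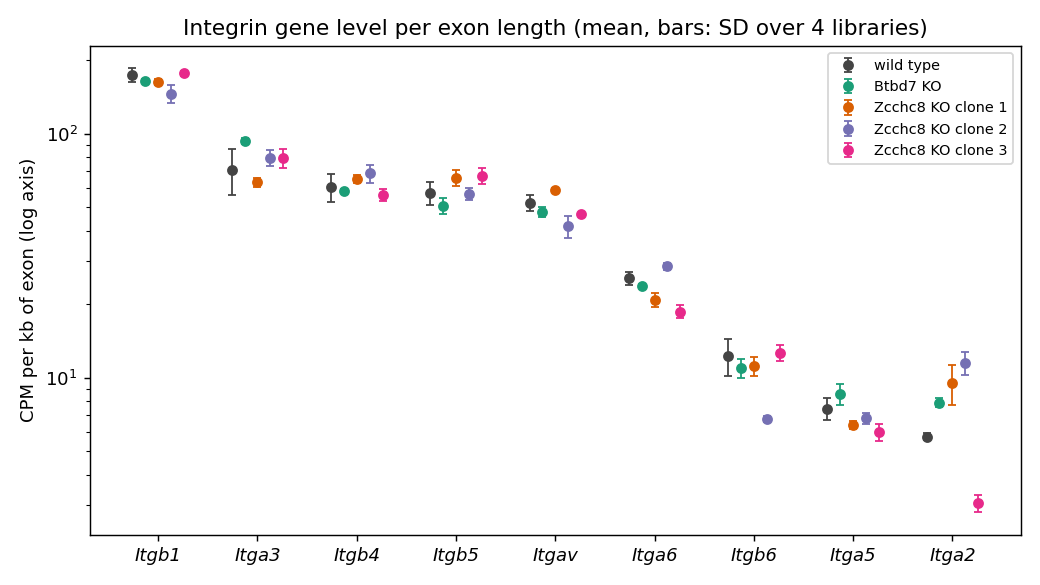
Level of each integrin gene per kilobase of exon (CPM per kb, log axis) in the 5 groups, as the mean with SD over 4 libraries. Itgb1 is highest in every group, and Itga2 spans the widest range between groups, from 3.04 in clone 3 to 11.5 in clone 2.

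Whether integrin genes changed in Zcchc8 KO was tested clone by clone and as the average of the clones, each against wild type. The alpha2 subunit gene moved the furthest, and in opposite directions: it rose in clones 1 and 2 and fell in clone 3. Itga2 (ENSMUSG00000015533.9, chromosome 13, 114833081 to 114932100) encodes the collagen-binding partner of beta1. It was at 41.6, 42.4, 38.9 and 40.6 CPM in wild type and at 59.6, 55.9, 54.5 and 55.4 CPM in Btbd7 KO. It was at 86.0, 67.2, 57.5 and 61.0 CPM in clone 1, at 69.4, 87.6, 82.0 and 89.0 in clone 2 and at 20.003, 21.8, 20.9 and 24.1 in clone 3. No library of any edited group lay within the wild-type range. The log2 fold change against wild type was 0.73 (SE 0.10) in clone 1, 1.01 (SE 0.10) in clone 2 and -0.91 (SE 0.11) in clone 3, with edgeR adjusted p of 3.26e-06, 2.13e-08 and 3.81e-07. It was 0.46 (SE 0.10) in Btbd7 KO, the negative control, with an edgeR adjusted p of 0.00172. The average over the clones, 0.28 (SE 0.08, edgeR adjusted p = 0.0105), therefore described none of them.

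The laminin-binding alpha subunits moved less. Itga6 (ENSMUSG00000027111.16, chromosome 2, 71745616 to 71858416), the partner of beta4, was at 227, 251, 222 and 221 CPM in wild type and 210.1, 217, 214 and 217 in Btbd7 KO. It was at 189, 185, 205 and 173 CPM in clone 1, at 248, 267, 256 and 259.5 in clone 2 and at 156, 178, 176 and 164 in clone 3. All libraries of clones 1 and 3, and also of Btbd7 KO, lay below wild type, and clone 2 overlapped it. Btbd7 KO was not called (-0.10, SE 0.06, edgeR adjusted p = 0.248). Itga6 fell in clone 1 (log2 fold change -0.29, SE 0.06, edgeR adjusted p = 0.000302) and in clone 3 (-0.46, SE 0.06, edgeR adjusted p = 1.5e-06). Clone 2 went the other way at 0.16 (SE 0.06, edgeR adjusted p = 0.0328), a call that was lost without wild-type replicate 3 or without replicate 2, 3 or 4 of clone 2 (edgeR adjusted p 0.0547 to 0.0792). The summed level of 6 myoepithelial and basal markers was also low in clone 1 (165 to 215 CPM) and clone 3 (195 to 226), against 253 to 398 in wild type, 401 to 421 in Btbd7 KO and 277 to 347 in clone 2. Krt14 carried most of that sum, at a mean of 319 CPM in wild type, 187 in clone 1 and 204 in clone 3, while Acta2 and Cnn1, which define contractile myoepithelium, had group means of at most 0.0687 CPM. The part of these markers in the level of Itga6 was not tested. In bulk RNA, fewer cells of a type and less RNA per cell cannot be told apart. Itga3 (ENSMUSG00000001507.16, chromosome 11, 95044474 to 95076801) was at 289, 480.2, 462 and 396 CPM in wild type, a range that held every library of clone 1 (357, 374, 341 and 372 CPM) and overlapped clone 2 (419, 433, 489 and 479) and clone 3 (467, 498, 401 and 447). In Btbd7 KO, Itga3 was at 510.4, 539.9, 539.8 and 545 CPM, above every other library, and it rose against wild type by 0.39 on the log2 scale (SE 0.10, edgeR adjusted p = 0.00681). In the clones Itga3 was not called against wild type, at -0.17 (SE 0.10) in clone 1, 0.16 (SE 0.10) in clone 2 and 0.16 (SE 0.10) in clone 3. Without wild-type replicate 1, the lowest library, clone 1 was called lower at -0.28 (edgeR adjusted p = 0.000433), and without wild-type replicate 2, the highest, clone 2 was called higher at 0.25 (edgeR adjusted p = 0.0458).

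Itga5 (ENSMUSG00000000555.8, chromosome 15, 103344286 to 103366763) pairs with beta1 to bind fibronectin. It was at 32.3, 34.8, 39.5 and 40.4 CPM in wild type and 41.5, 37.0, 47.0 and 43.3 in Btbd7 KO. It was at 29.953, 32.5, 32.4 and 31.5 CPM in clone 1, 32.6, 36.0, 33.8 and 32.0 in clone 2, and 31.5, 27.2, 27.8 and 31.8 in clone 3. Only clone 3 lay wholly below wild type, whereas every clone lay below Btbd7 KO. Itga5 fell in clone 3 (log2 fold change -0.31, SE 0.09, edgeR adjusted p = 0.0138) and in the average over the clones (-0.22, SE 0.07, edgeR adjusted p = 0.0230). The call of the average was lost without wild-type replicate 3 or 4 (-0.18 and -0.15), and that of clone 3 without wild-type replicate 4 or replicate 2 of clone 3 (-0.25 and -0.27). Itgav (ENSMUSG00000027087.11, chromosome 2, 83724397 to 83806916), the shared alpha partner of beta5 and beta6, was at 596, 511, 541 and 590.4 CPM in wild type. It was at 620.4, 630.1, 638 and 647 CPM in clone 1, all above wild type. It was at 429.7, 512, 403 and 444 CPM in clone 2, 499.6, 512, 501 and 500.2 in clone 3 and 499.7, 502, 507 and 549 in Btbd7 KO, each overlapping wild type. Itgav rose in clone 1 (log2 fold change 0.18, SE 0.06, edgeR adjusted p = 0.0235) and fell in clone 2 (-0.32, SE 0.06, edgeR adjusted p = 0.000214). The call in clone 1 was lost without wild-type replicate 2 (0.14, edgeR adjusted p = 0.0833).

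Among the beta subunits, Itgb6 had the largest change, a fall in clone 2. Itgb6 (ENSMUSG00000026971.15, chromosome 2, 60598292 to 60722643) is an epithelial partner of alphav that binds fibronectin and latent TGF-beta. It was at 108, 86.8, 71.9 and 81.6 CPM in wild type and 77.3, 75.9, 87.2 and 70.8 in Btbd7 KO. It was at 78.9, 89.5, 75.1 and 74.0 CPM in clone 1, at 48.4, 49.4, 47.9 and 46.5 in clone 2 and at 90.3, 99.2, 85.1 and 84.6 in clone 3. Every library of clone 2 lay below all others, and those of the other groups overlapped wild type. Itgb6 fell by 0.86 on the log2 scale in clone 2 (SE 0.10, edgeR adjusted p = 1.6e-07), while clones 1 and 3 were at -0.13 (SE 0.10, edgeR adjusted p = 0.304) and 0.04 (SE 0.09, edgeR adjusted p = 0.775). Clone 2 differed from clone 1 (log2 fold change of clone 1 minus clone 2 0.73, edgeR adjusted p = 3.76e-06) and from clone 3 (clone 2 minus clone 3 -0.90, edgeR adjusted p = 1.24e-07). The average over the clones, -0.32 (SE 0.08, edgeR adjusted p = 0.00185), moved to -0.18 without wild-type replicate 1, the highest wild-type library.

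Itgb1 (ENSMUSG00000025809.15, chromosome 8, 128685654 to 128733200), the most abundant subunit, was at 776, 679, 675 and 712 CPM in wild type and at 532, 646, 592 and 611 in clone 2. It ran from 661 to 692 CPM in Btbd7 KO, 641 to 679.7 in clone 1 and 700.3 to 736 in clone 3. All clone 2 libraries lay below wild type, and Itgb1 fell by 0.25 on the log2 scale there (SE 0.05, edgeR adjusted p = 0.000743). Itgb1 was not called in clone 1 (-0.10, SE 0.05, edgeR adjusted p = 0.184) or in clone 3 (0.02, SE 0.05, edgeR adjusted p = 0.797). Itgb4 (ENSMUSG00000020758.15, chromosome 11, 115974709 to 116008412) was at 339, 447, 459 and 442 CPM in wild type and at 475, 438, 538 and 479.8 in clone 2, ranges that overlapped. It ran from 399 to 419 CPM in Btbd7 KO, 435 to 475 in clone 1 and 369 to 412 in clone 3. It was called in clone 2, at 0.19 (SE 0.07, edgeR adjusted p = 0.0456), and not in clone 1 or 3. Without wild-type replicate 1, the lowest wild-type library, clone 3 was called lower (-0.18, edgeR adjusted p = 0.00853). The call in clone 2 was lost without wild-type replicate 1, Btbd7 KO replicate 4, replicate 3 or 4 of clone 2, or replicate 4 of clone 3 (0.13 to 0.20, edgeR adjusted p 0.0512 to 0.172). The exons of Itgb4 share 537 bases with a gene on the other strand, B230344G16Rik, which was not analysed here.

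Itgb5 (ENSMUSG00000022817.15, chromosome 16, 33829665 to 33949338), the vitronectin-binding partner of alphav, was at 176, 198, 227 and 211 CPM in wild type and at 193, 187, 161 and 179.5 in Btbd7 KO. It was at 231, 231, 215 and 257 CPM in clone 1, 213, 199, 205 and 187 in clone 2, and 257, 229.7, 219 and 250.2 in clone 3. Each clone overlapped wild type. Itgb5 was called higher in clone 1 (log2 fold change 0.20, SE 0.08, edgeR adjusted p = 0.0388) and in clone 3 (0.24, SE 0.08, edgeR adjusted p = 0.0192). The first call was lost without wild-type replicate 2 or replicate 4 of clone 1 (0.19 and 0.17), and the second without replicate 1 or 4 of clone 3 (0.21 in each case).

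**Figure D2:**
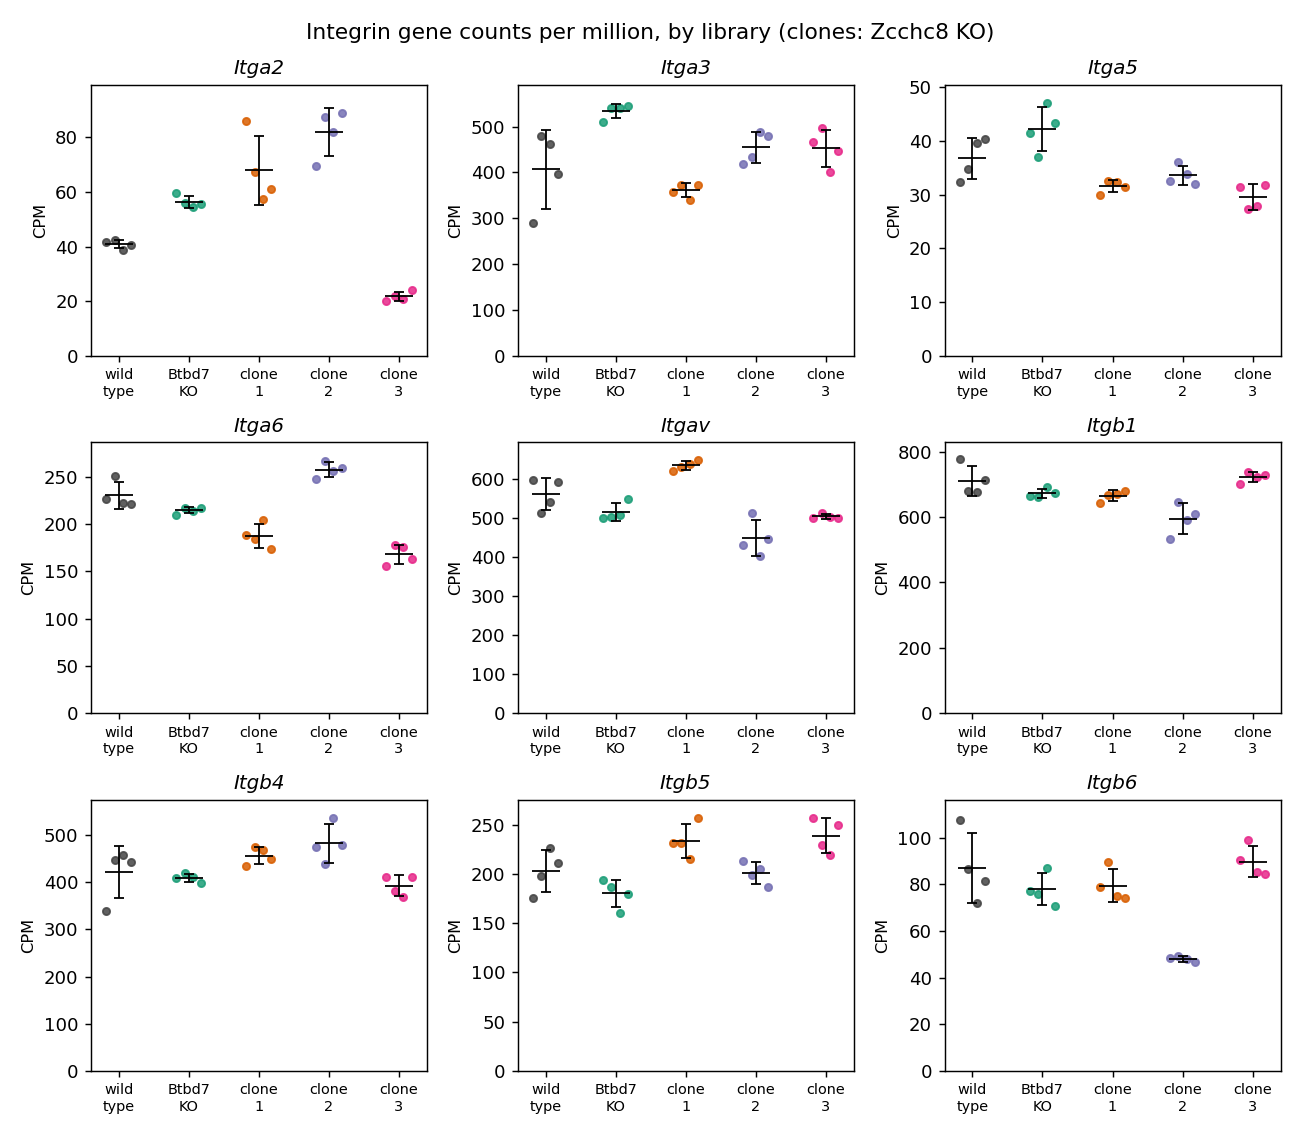
CPM of the 9 tested integrin genes in each library (points), with the mean and SD per group (bars), for wild type, Btbd7 KO and Zcchc8 KO clones 1 to 3. Itga2 lies above wild type in clones 1 and 2 and below it in clone 3, and Itgb6 is lowest in clone 2, at 46.5 to 49.4 CPM.

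Counted together, for the average over the clones 1 of 9 tested integrin genes was called higher and 3 lower, where 16.2% of all tested genes were called higher and 19.9% lower. The median log2 fold change was -0.10 for the integrins and -0.01 for all 15297 genes tested. In clone 1, 3 integrins were higher and 1 lower (background 16.7% and 19.1%), in clone 2, 3 and 3 (16.1% and 16.2%), and in clone 3, 1 and 3 (14% and 15.3%). In Btbd7 KO, Itga2 and Itga3 were higher and none lower (7.73% and 8%). The split over all genes depended on the scaling, at 2474 higher and 3046 lower with TMM factors but 3229 and 2005 with total counts alone, where 2 integrins were higher and 1 lower. When counts were summed per line, so that 3 Zcchc8 KO lines met 2 control lines, the calls of Itga2 (0.22, edgeR adjusted p = 0.837), Itga6 (-0.15, 0.704), Itgb6 (-0.22, 0.651) and Itga5 (-0.32, 0.189) were all lost.

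The clones were set against one another with a joint test that they are equal. Of the 9 integrin genes, 8 differed among the clones, against 28.5% of all tested genes, and Itga5 was not called (edgeR adjusted p = 0.344). The joint edgeR adjusted p was 1.73e-12 for Itga2, 1.62e-08 for Itga6, 1.77e-07 for Itgb6 and 1.55e-06 for Itgav. It was 0.00104 for Itgb1, 0.0086 for Itgb4, 0.0159 for Itga3 and 0.0242 for Itgb5. Without replicate 1 or 3 of clone 1, or replicate 2 or 4 of clone 2, or replicate 4 of clone 3, Itga3 or Itgb5 was no longer called in this test (edgeR adjusted p 0.0518 to 0.0967). Between clones 1 and 2, 4 integrins were higher in clone 1 and 3 lower (10.2% and 11.3% of all genes). Itgav was higher in clone 1 by 0.50 (SE 0.06, edgeR adjusted p = 8.45e-07) and Itga6 was lower by 0.46 (log2 fold change -0.46, SE 0.06, edgeR adjusted p = 1.78e-06). Between clones 1 and 3, 2 were higher and 1 lower (7.42% and 6.78%), and Itga2 was 3.12-fold higher in clone 1 (edgeR adjusted p = 4.73e-11). Between clones 2 and 3, 3 were higher and 3 lower (9.39% and 8.46%), with Itga2 3.78-fold higher in clone 2 (edgeR adjusted p = 1.02e-12). Each clone is a single line, so the edit and any other difference between lines cannot be told apart.

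Set against the Btbd7 KO line in place of wild type, the average over the Zcchc8 KO clones had Itgb5 higher and Itga3 and Itga5 lower (18.8% and 22.2% of all genes). On the log2 scale the difference was 0.31 (SE 0.06, edgeR adjusted p = 0.000263) for Itgb5, -0.34 (SE 0.08, edgeR adjusted p = 0.00106) for Itga3 and -0.41 (SE 0.07, edgeR adjusted p = 6.78e-05) for Itga5. Itga2, Itga6 and Itgb6, called in the average against wild type, were at -0.19 (SE 0.08, edgeR adjusted p = 0.0687), -0.09 (SE 0.05, edgeR adjusted p = 0.122) and -0.15 (SE 0.08, edgeR adjusted p = 0.124) here. The comparison shares its Zcchc8 KO libraries with the one against wild type.

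The PROMPT regions of the integrins were compared next, with counts scaled by the gene totals of each library. RNA from the region upstream of Itgb4, Itgav and Itga3 rose several-fold in each Zcchc8 KO clone and not in Btbd7 KO. Itgb4 PROMPT counts were 42, 43 and 92 in the wild-type libraries, or 2.43, 3.21 and 5.40 CPM, and 3.38, 2.92, 3.35 and 2.703 CPM in Btbd7 KO. They were at 29.6, 30.1, 33.3 and 28.8 CPM in clone 1, at 17.5, 18.4, 19.1 and 19.3 in clone 2 and at 17.01, 17.1, 15.9 and 18.3 in clone 3. The lowest Zcchc8 KO library was thus well above the highest control library. Itgb4 PROMPT RNA rose by 2.53 on the log2 scale in the average over the clones (SE 0.16, edgeR adjusted p = 2.13e-21), a 5.76-fold rise, and in Btbd7 KO it was -0.26 (SE 0.20, edgeR adjusted p = 0.551).

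Itgav PROMPT values were 3.36, 3.74 and 6.45 CPM in wild type and 3.68, 4.25, 4.71 and 3.46 in Btbd7 KO. They were 25.3, 22.1, 22.6 and 23.1 CPM in clone 1, 14.8, 15.2, 11.3 and 12.4 in clone 2, and 13.9, 9.54, 12.7 and 14.8 in clone 3. No Zcchc8 KO library overlapped a control library, and the average over the clones rose by 1.80 on the log2 scale (SE 0.17, edgeR adjusted p = 2.5e-14). Itga3 PROMPT values were 6.77, 10.1 and 8.50 CPM in wild type and 7.84, 10.2, 6.95 and 5.32 in Btbd7 KO. They were 23.8, 25.5, 28.4 and 27.4 CPM in clone 1, 25.5, 28.1, 26.4 and 22.6 in clone 2, and 23.6, 21.5, 20.4 and 18.5 in clone 3. These groups also stood apart, and the average over the clones lay 1.52 log2 units above wild type (SE 0.14, edgeR adjusted p = 1.08e-14). In Btbd7 KO, Itgav was at -0.19 (SE 0.20, edgeR adjusted p = 0.707) and Itga3 at -0.13 (SE 0.16, edgeR adjusted p = 0.750).

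The regions of Itgb1, Itga2 and Itgb5 passed the filter on low counts only through the Zcchc8 KO libraries, so they had to differ and their calls are a description. Itgb1 PROMPT counts were 10, 10 and 5 in wild type, 6, 10, 3 and 1 in Btbd7 KO, 19, 26, 28 and 23 in clone 1, 17, 38, 38 and 64 in clone 2, and 64, 45, 31 and 64 in clone 3. Itgb1 RNA was the highest of the family, but its PROMPT level, 0.540 ± 0.230 CPM in wild type (SD, n = 3) and 2.91 to 4.63 CPM in the means of the clones, was far below that of Itgb4. Itga2 PROMPT counts were 3, 1 and 0 in wild type, 9, 0, 1 and 4 in Btbd7 KO, 20, 25, 17 and 16 in clone 1, 11, 18, 48 and 17 in clone 2, and 8, 3, 11 and 7 in clone 3. Scaled by gene totals, the summed counts of Itga2 were 31.2-fold those of wild type in clone 1 (95% counting interval 11.7 to 117), 21.02-fold in clone 2 (7.94 to 78.7) and 7.77-fold in clone 3 (2.73 to 30.4). In Btbd7 KO, the negative control, they were 3.24-fold (1.02 to 13.5), and wild type held only 4 counts in all. The Itga2 region was not called there (log2 fold change 1.55, edgeR adjusted p = 0.409). Against Btbd7 KO in place of wild type, the average over the clones was 2.40. Itgb5 PROMPT counts were 7, 5 and 0 in wild type, 0, 4, 0 and 4 in Btbd7 KO, 25, 11, 14 and 17 in clone 1, 6, 14, 19 and 43 in clone 2, and 16, 5, 6 and 19 in clone 3. The log2 fold change averaged over the clones was 2.71 (SE 0.38) for Itgb1, 3.95 (SE 0.73) for Itga2 and 2.50 (SE 0.63) for Itgb5, with edgeR adjusted p of 1.69e-08, 6.79e-06 and 0.000777. In clone 3 the call of Itgb5 (1.91, edgeR adjusted p = 0.0260) was lost without wild-type replicate 4 (1.33) or without replicate 1 or 4 of clone 3 (1.83 and 1.73).

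**Figure D3:**
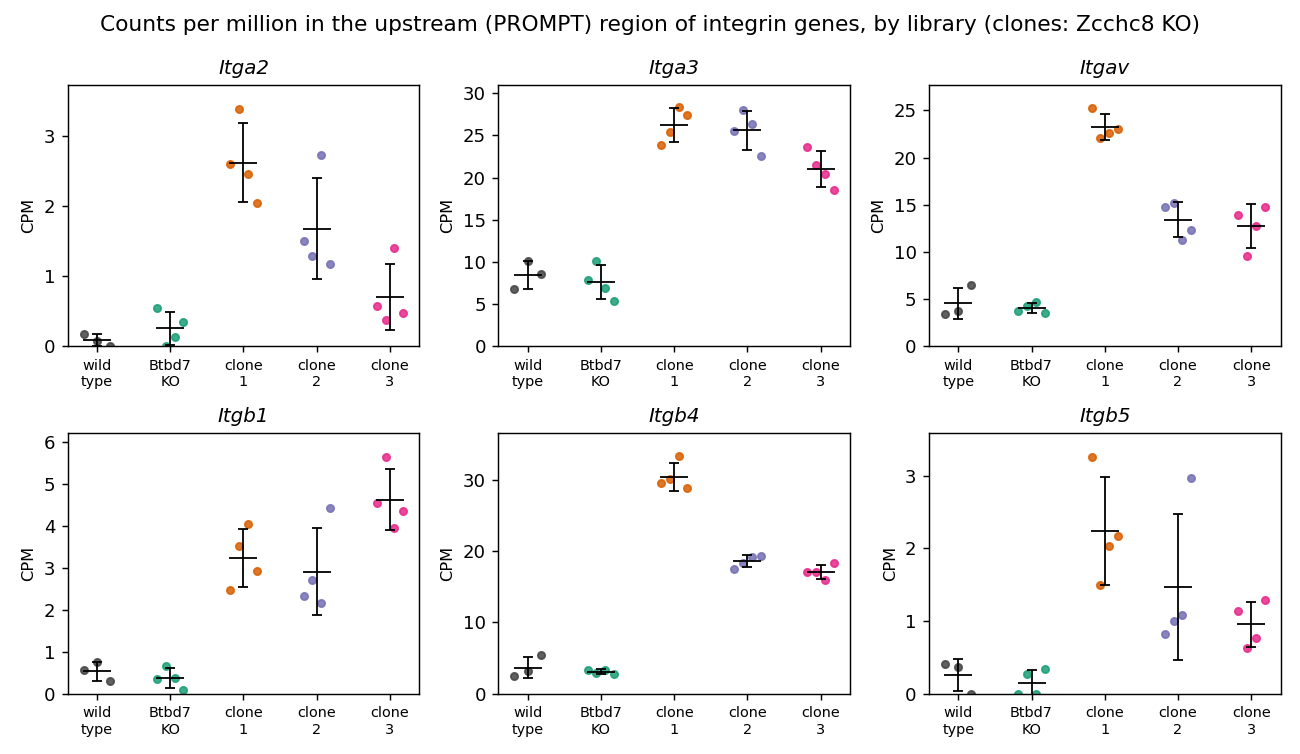
CPM in the PROMPT region of 6 integrin genes in each library (points), with the mean and SD per group (bars), for 3 wild-type libraries and 4 of each other group. For Itga3, Itgav and Itgb4 every Zcchc8 KO library lies above every wild-type and Btbd7 KO library, and for Itgb4 clone 1 stands at 28.8 to 33.3 CPM.

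The other 4 regions were too thinly covered to test. Itga5 PROMPT counts were 0 in each wild-type library, and 0, 2, 10 and 6 in clone 1, 2, 10, 13 and 0 in clone 2, 5, 3, 5 and 1 in clone 3, and 0, 0, 3 and 1 in Btbd7 KO. Set against an assumed floor of 3 counts over the wild-type group, the summed counts of Itga5 were 9.60-fold that floor in clone 1. They were 7.45-fold in clone 2 and 4.9997-fold in clone 3, scaled by gene totals. Lower 95% counting limits, without the floor, were 7.03-fold, 5.63-fold and 3.55-fold, and 1 library each of clones 1 and 2 had 0 counts. Itgb6 PROMPT counts were 4, 13 and 0 in wild type, so that 1 library held most of the sum of 17, and they summed to 10 in Btbd7 KO, 11 in clone 1, 5 in clone 2 and 16 in clone 3. Scaled by gene totals, those sums of Itgb6 were 1.04-fold those of wild type in clone 1 (95% counting interval 0.438 to 2.34), 0.263-fold in clone 2 (0.0759 to 0.743, which leaves out the spread between the wild-type libraries) and 1.01-fold in clone 3 (0.477 to 2.12). Itga6 had 1 PROMPT count in all 19 libraries, although its gene was at 168 to 258 CPM in the group means, and Itgb3 had 0 to 3 per library.

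Read against the background, 39.2% of 17617 tested PROMPT regions were called higher and 3.85% lower in the average over the clones. Of the 12936 regions that passed the filter on wild-type and Btbd7 KO libraries alone, 29.1% were called higher. The 3 integrin regions among these (Itga3, Itgav and Itgb4) were all called higher. The calls of Itgb1, Itga2 and Itgb5 are a description and are not set against these shares. By clone the background was 38.7%, 35.1% and 36.4% higher and 4.22%, 3.51% and 2.55% lower, and Itga3, Itgav and Itgb4 were called higher in each. In Btbd7 KO no integrin region was called by edgeR (0 of 6 at an unadjusted p under 0.05), against 1.23% higher and 1.75% lower over all regions. Against Btbd7 KO in place of wild type, Itga3 (log2 fold change 1.66), Itgav (1.99) and Itgb4 (2.79) were higher as well (background 45.1% of all tested regions). Itgb1, Itga2 and Itgb5, which passed the filter only through the Zcchc8 KO libraries, reached up to 3.18 (Itgb5). Itga2 in clone 3 overlapped Btbd7 KO. The median log2 fold change over all regions was 0.43, and scaling within the PROMPT table moved it to 0.02, with 5054 regions higher and 3665 lower in place of 6914 and 679. With that scaling Itgb4 was at 2.15, Itgav at 1.43 and Itga3 at 1.15 (edgeR adjusted p at most 3.26e-10). When counts were summed per line, with wild type and Btbd7 KO together as controls, Itgb4 was at 2.69, Itgav at 1.94 and Itga3 at 1.58 (edgeR adjusted p at most 6.82e-05).

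The clones also differed in PROMPT level for 3 of 6 regions, where 10.9% of all regions were called in the joint test. The joint edgeR adjusted p was 8e-06 for Itgb4, 2.75e-05 for Itgav and 0.0426 for Itga2, and that of Itga2 was lost without any one of 10 of the 12 Zcchc8 KO libraries (up to 0.139). Itgb4 was 1.63-fold higher in clone 1 than in clone 2 (edgeR adjusted p = 0.000215) and 1.78-fold higher than in clone 3 (edgeR adjusted p = 4.46e-05). Itgav was 1.75-fold higher in clone 1 than in clone 2 (edgeR adjusted p = 0.000232) and 1.81-fold higher than in clone 3 (edgeR adjusted p = 0.000222). The clone 1 libraries were also shallow, at 6833258 to 7683444 gene counts each, as were some of clones 2 and 3 (from 7053304 and 7578027), and the part of depth in this difference was not tested. In gene RNA, Itgav was 1.42-fold higher in clone 1 than in clone 2 and 1.26-fold higher than in clone 3. Itga2 was 3.12-fold higher in clone 1 than in clone 3, beside 3.81-fold in PROMPT RNA. The Itgb4 gene was not called between clone 1 and clone 2 (0.947-fold) or clone 3 (1.16-fold). The part of the gene levels in these PROMPT differences was not tested. Pairwise, 2 regions were higher in clone 1 than in clone 2 (5.93% of all regions higher, 2.53% lower) and 3 higher in clone 1 than in clone 3 (3.03% and 1.17%). None was called between clones 2 and 3 by edgeR (2% and 2.41%). For Itga3 a difference among the clones was not called (edgeR adjusted p = 0.198), nor was one for Itgb1 (0.324) or Itgb5 (0.362).

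Whether the upstream RNA changed by more than the gene itself was tested in 1 fit of both counts with a term for each library. The PROMPT counts of Itga3, Itgav and Itgb4 rose relative to their gene. So did those of Itgb1, Itga2 and Itgb5, whose regions passed the filter only through the Zcchc8 KO libraries, so their rise is a description. With no such limit on the regions, 47.1% of 11365 genes rose in this way and 8.39% did the opposite. The difference of log2 fold changes, PROMPT minus gene, was 2.59 (SE 0.18) for Itgb4, 1.90 (SE 0.18) for Itgav and 1.61 (SE 0.18) for Itga3, with edgeR adjusted p of 3.2e-11, 3.85e-09 and 5.55e-08. For the regions that passed through the Zcchc8 KO libraries it was 2.77 (SE 0.32) for Itgb1, 3.65 (SE 0.66) for Itga2 and 2.43 (SE 0.56) for Itgb5. In Btbd7 KO no integrin was called, against 0% higher and 0.0088% lower over all genes (0 of 6 at an unadjusted p under 0.05; lowest edgeR adjusted p 0.479, for Itga3). Per 1000 counts in the gene, Itgb4 had 8.21 ± 3.54 PROMPT counts in wild type (SD, n = 3), 66.6 ± 3.59 (clone 1), 38.7 ± 2.95 (clone 2) and 43.4 ± 1.57 (clone 3; SD, n = 4 per group). Itga2 had 2.01 ± 2.05 in wild type (SD, n = 3), and 39.2 ± 9.15 (clone 1), 20.7 ± 9.23 (clone 2) and 33.1 ± 23.1 (clone 3; SD, n = 4 per group). These ratios of Itga2 rest on few counts, and the clones were not tested one by one on this scale.

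**Figure D4:**
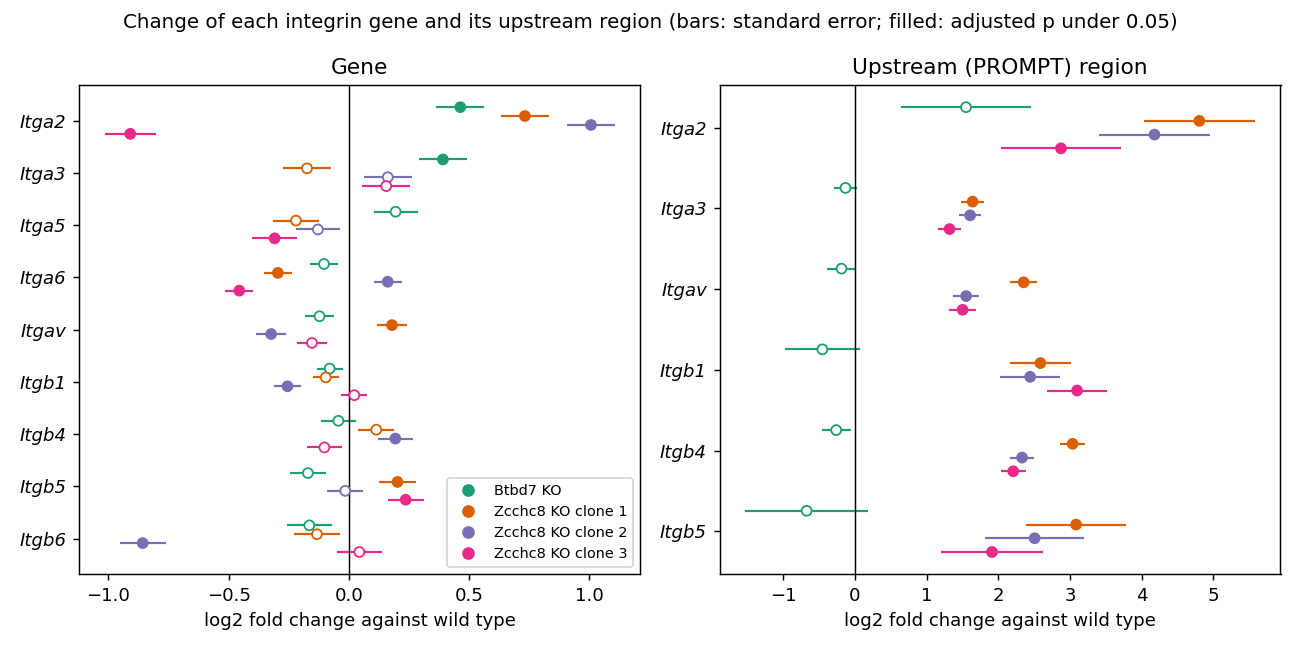
Log2 fold change against wild type of each integrin gene (left) and its PROMPT region (right) for Btbd7 KO and Zcchc8 KO clones 1 to 3, with standard errors as bars and filled points for an adjusted p under 0.05. The genes scatter on both sides of 0, from -0.91 to 1.01, while the 6 regions lie at 1.32 or more in every Zcchc8 KO clone. The regions of Itgb1, Itga2 and Itgb5 passed the filter on low counts only through those clones.

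Genes that work with the integrins were counted from lists, for the average over the clones against wild type, where 16.2% of all tested genes were higher and 19.9% lower. Of 17 other integrin subunits, 4 were tested, 1 was higher and 1 lower, but without wild-type replicate 1 there were 5 tested, 3 higher and 1 lower. Of 31 integrin ligands, 24 were tested, 7 were higher and 11 lower, with a median log2 fold change of -0.07. With total counts alone 7 ligands were higher and 8 lower, and without wild-type replicate 1 there were 5 and 10. Tnc, encoding the matrix protein tenascin C, was at 26.8 ± 3.64 CPM in wild type, 37.3 ± 4.05 in Btbd7 KO, 0.659 ± 0.560 (clone 1), 0.0946 ± 0.110 (clone 2) and 1.85 ± 0.828 (clone 3; SD, n = 4 per group). On the log2 scale Tnc fell by 5.63 in the average over the clones (SE 0.22, edgeR adjusted p = 6.54e-16). Tgfb1, whose latent form integrins bind, was the most raised ligand with at least 50 counts, at 0.73 (SE 0.27, edgeR adjusted p = 0.0400), and it was called in clone 2 (1.57, edgeR adjusted p = 0.000457) but not in clone 1 (0.21) or clone 3 (0.41). Fn1, encoding fibronectin, and the laminin genes Lama3 and Lamb3 were picked after their values were seen. Fn1 was at 2915 ± 121 CPM in wild type, 5449 ± 166 in Btbd7 KO, 3889 ± 253 (clone 1), 2633 ± 261 (clone 2) and 5057 ± 312 (clone 3; SD, n = 4 per group), so that its highest mean was in the negative control. Lama3 was at -0.27 (SE 0.05, edgeR adjusted p = 9.12e-05), while Lamb3 was not called (-0.05, edgeR adjusted p = 0.458). Lama3 went the same way as Itga6 in each clone, at -0.36 in clone 1, 0.19 in clone 2 and -0.63 in clone 3.

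Of 30 adaptors and activators, 26 were tested, and 0 were higher and 11 lower, with a median of -0.16, beside 16.2% and 19.9% of all genes. The count moved with the scaling, to 4 higher and 9 lower with RLE factors and to 5 and 7 with total counts alone. The background moved as well. The median of the list was -0.12 with RLE factors, beside 0.03 over all genes, and -0.08 with total counts alone, beside 0.07. Tns1, a tensin that binds beta tails, was the lowest at -1.76 (edgeR adjusted p = 5.47e-08), though it was not called in clone 2 (-0.12, edgeR adjusted p = 0.718). Of 9 negative regulators, 1 was higher and 4 lower, with Csk, a kinase that restrains Src, at 0.21 (SE 0.06, edgeR adjusted p = 0.00883) and Dab2, an adaptor of integrin uptake, at -2.38 (SE 0.19, edgeR adjusted p = 5.22e-10). Dab2 was at -1.26 in clone 1 and -5.77 in clone 3 but was not called in clone 2 (-0.12, edgeR adjusted p = 0.699). With RLE factors 3 negative regulators were lower, and with total counts alone 2 were. Of 12 hemidesmosome and membrane partners, 0 were higher and 4 lower, and with either other scaling 1 was higher and 3 lower. Slc3a2, the CD98 heavy chain that binds beta1, was at -0.51 (SE 0.05, edgeR adjusted p = 1.44e-08). The median log2 fold change over all genes was -0.01 with TMM factors, and nothing particular to these lists was tested. The share of all genes called under the other scalings is not given beside the list counts.

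The genes most alike in pattern to 3 integrins were found over 20 libraries among 10768 genes with at least 50 counts, as a description, since libraries of a group share their level. For Itga2 they were Sept9 (Pearson r = 0.916) and Muc1 (r = 0.914). Muc1, an epithelial mucin, was called with Itga2 in each clone, with log2 fold changes of 1.02, 1.18 and -0.74 for clones 1, 2 and 3 (edgeR adjusted p 1.17e-06, 1.15e-07 and 0.000176). For Itgb6 they were Adam12 (r = 0.942) and Smad7 (r = 0.910), and in clone 2 Smad7, an inhibitor of TGF-beta signalling, was at -1.32 (edgeR adjusted p = 2.98e-07). For Itga5 they were Drg1 (r = 0.910) and Adsl (r = 0.882). Of the annotated genes that overlap an integrin or lie within 5 kb upstream of its start, those examined had too few counts to be tested, and B230344G16Rik at Itgb4 and Gm17250 at Itga6 were not analysed here. The lincRNA Gm13647 ends 219 bases before the start of Itga6, on the same strand, and had 0 or 1 count per library. Gm47776 lies 2542 bases upstream of Itga2 and had at most 3 counts per library.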

How the data were processed

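Total RNA of 20 libraries was read as 2 tables of raw counts deposited by the authors, 1 per gene and 1 per PROMPT region. Per the submitters' processing notes, reads were checked with FastQC and aligned with STAR 2.7.3a. The counting program, genome build, strand setting and extent of the PROMPT regions are not given in the sources used here. Gene symbols came from GENCODE M21 (54573 of 55471 identifiers matched with version, 55230 without it). Gene counts were scaled with TMM factors and PROMPT counts with the gene table's library sizes and factors, so a PROMPT CPM is relative to gene counts. One edgeR 4.0.16 quasi-likelihood fit (R 4.3.3) over the 5 groups followed filterByExpr, with Benjamini-Hochberg adjustment over all features and a threshold of 0.05. PROMPT and gene counts were compared in a joint fit with a term per library. Counting intervals were computed on counts summed over the libraries of a group, so they cover counting error only and leave out the spread between libraries. Reads carried no molecular identifiers. Members and lists were chosen with earlier results of these data known. Named were all 10 members, the edited genes, tested neighbours, the highest and lowest called gene of each list (mean count of 50 or more), and the 2 genes most correlated with each most changed member. Alternatives were DESeq2 1.42.0, limma 3.58.1 on log2 ratios (pseudocounts 0.5 and 2), other scalings, filters and a fold threshold, only the groups compared, the other deposited gene table (the same counts for 19 libraries, without wild-type replicate 1), a replicate block, cell lines as replicates, another transcript length, and leaving out each library. Replicate numbers did not pair libraries: deviations of same-numbered libraries correlated at -0.0871 to 0.152, over 0.1 in 2 of 40 pairs. On simulated counts, 96% of 2-fold changes were recovered in the gene comparison, 74% in the PROMPT comparison and 55% in the joint fit. The simulation assumed the spread between libraries, gave all clones the same change and held no outlying library. It therefore need not describe recovery in these data. One result is not reported here.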

Additional observations from a re-analysis of the deposited data

Results flagged for a closer look

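In 5 of 69 groups of 4 libraries, 1 library lay far from the rest by Dixon's ratio at its 95% critical value, which chance alone passes in about 1 group in 20. Itga3 in Btbd7 KO replicate 1 was at 510.4 CPM, against 539.8 to 545 in the other libraries of that group. Itgav in Btbd7 KO replicate 4 was at 549 CPM, against 499.7 to 507, and in clone 3 replicate 2 it was at 512 CPM, against 499.6 to 501. Itgb4 in wild-type replicate 1 was at 339 CPM, against 442 to 459. Itgb5 PROMPT RNA in clone 2 replicate 4 was at 2.97 CPM, against 0.822 to 1.08.

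The 3 Zcchc8 KO clones differed from each other in 8 of 9 gene levels by edgeR's joint test, against 28.5% of all tested genes. The adjusted p was 1.73e-12 for Itga2, 1.62e-08 for Itga6, 1.77e-07 for Itgb6, 1.55e-06 for Itgav, 0.00104 for Itgb1, 0.0086 for Itgb4, 0.0159 for Itga3 and 0.0242 for Itgb5. The gene calls of Itga3 and Itgb5 were lost when single libraries were left out (edgeR adjusted p up to 0.0775 and 0.0967). In PROMPT RNA the clones differed for Itgb4 (edgeR adjusted p = 8.00e-06), Itgav (2.75e-05) and Itga2 (0.0426), against 10.9% of all tested regions. The PROMPT call of Itga2 was likewise lost without single Zcchc8 KO libraries (up to 0.139).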

How the results depend on the processing

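Calls of single integrin genes often hung on 1 library or on the scaling, and low counts limit the PROMPT regions of Itga2, Itga5, Itgb1, Itgb5 and Itgb6. Against wild type, the average over the clones had 0 integrin genes higher and 0 lower with a log2 fold change over 0.5. It had 2 higher with DESeq2, RLE or no TMM, and 1 lower with no TMM. Cell lines as replicates also gave 0 and 0, but set the clones against wild type and Btbd7 KO together, which is another comparison. Requiring a log2 fold change over 0.5, clone 1 had 1 higher and 0 lower, clone 2 had 1 and 1, clone 3 had 0 and 1 and Btbd7 KO had 0 higher. It left 0 and 0 against Btbd7 KO, 2 and 0 for clone 1 against clone 2, 1 and 0 for clone 1 against clone 3, and 1 lower for clone 2 against clone 3. Clone 1 had 2 lower with no filter and 3 with the other deposited table, which also gave 1 lower in Btbd7 KO. With only the groups compared, 1 was higher in clone 2, 0 in clone 3 and 1 in Btbd7 KO. Against Btbd7 KO, 2 were higher with DESeq2, RLE, no TMM, the other table or only the groups compared, the last with 4 lower. No TMM gave 2 higher between clones 1 and 2. Between clones 1 and 3, 4 were higher with DESeq2, RLE, the other table or only the groups compared, the last with 2 lower. Averaged over the clones, the median log2 fold change over all genes moved too, from -0.006 to 0.073 with no TMM and 0.027 with RLE. The share of all genes called under each setting is not given beside these counts, so nothing particular to integrins can be read from them.

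The sign changed for these values, none of them called. Averaged over the clones, Itga3 was at -0.165 with cell lines as replicates, where the controls were wild type and Btbd7 KO together. With the other table, Itga3 was at -0.0652 and Itgb4 at -0.0032, and Itgb6 in clone 1 was at 0.00681. Itgb5 in clone 2 was at 0.0138 with DESeq2, 0.0724 with no TMM and 0.014 with RLE. Itgb1 against Btbd7 KO was at 0.0119 with DESeq2, 0.0432 with no TMM and 0.0116 with RLE. Itga3 PROMPT between clones 1 and 2 was at -0.0826 with scaling within the PROMPT table, and the Itgb5 PROMPT minus gene response in Btbd7 KO was at 0.0485 in limma with a pseudocount of 2.

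Leaving out each library in turn, the counts of integrin genes ran from 1 to 2 higher and 2 to 5 lower averaged over the clones, 1 to 3 higher and 1 to 3 lower in clone 1, 1 to 4 higher in clone 2, 0 to 1 higher in clone 3 and 0 to 1 lower in Btbd7 KO. They ran from 1 to 2 higher against Btbd7 KO, 2 to 4 higher and 1 to 3 lower between clones 1 and 2, and 2 to 4 higher and 0 to 1 lower between clones 1 and 3. These counts likewise stand without the share of all genes called in the same fits, so they show nothing particular to integrins. Signs changed for Itga3 (-0.0652 to 0.138) and Itgb4 (-0.0032 to 0.12) averaged over the clones, Itgb6 in clone 1 (-0.20 to 0.00681) and clone 3 (-0.0316 to 0.169), and Itgb5 in clone 2 (-0.0511 to 0.0463). They also changed for Itgb5 between clones 1 and 3 (-0.0772 to 0.0124) and Itga3 between clones 2 and 3 (-0.0450 to 0.0568). In PROMPT RNA they changed in Btbd7 KO for Itga3 (-0.31 to 0.00554), Itgav (-0.37 to 0.18) and Itgb4 (-0.50 to 0.15), for Itga3 between clones 1 and 2 (-0.0163 to 0.0871), and between clones 2 and 3 for Itgav (-0.0550 to 0.132) and Itgb5 (-0.00264 to 0.78). The PROMPT minus gene response in Btbd7 KO ran from -0.20 to 0.20 for Itgav, -0.34 to 0.29 for Itgb4 and -1.07 to 0.17 for Itgb5. The cause was not tested.

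With the replicate block, 1 integrin gene was higher and 3 lower averaged over the clones, and the PROMPT regions of Itga3, Itgav and Itgb4 stayed higher. So did the regions of Itgb1, Itga2 and Itgb5, which passed the filter only through the Zcchc8 KO libraries. The share of all genes and regions called with the block is not given beside these counts, so they show nothing particular to integrins. The block ended the calls of Itgb5 in clone 1 (0.20, edgeR adjusted p = 0.0507), of Itga2 (-0.28, 0.0520) and Itgb5 (0.22, 0.0550) between clones 1 and 2, and of the Itgb5 PROMPT region in clone 3 (1.81, 0.0555), and changed no other call.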

Other observations

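Itgb2, the beta subunit of leukocyte integrins, was picked after its values were seen. It was at 113 ± 11.5 CPM in wild type and at 157 ± 8.22 (clone 1) and 91.2 ± 4.36 (clone 3; SD, n = 4 per group). Against wild type it was higher in clone 1 (log2 fold change 0.47, edgeR adjusted p = 8.85e-06) and lower in clone 3 (-0.31, edgeR adjusted p = 0.00135), and it was not called in clone 2 (-0.14, edgeR adjusted p = 0.139).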
